A study of Mus musculus with 13 samples.

Results

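The AP-1, EGR1 and MYC early response genes were examined in mouse lung after 5 days of hyperoxia. The set held 10 genes of the 32544 rows of the count table, taken by symbol: Fos, Fosb, Fosl1, Fosl2, Jun, Junb, Jund, Atf3, Egr1 and Myc. All animals were wild-type C57BL/6J male mice, bought at 7 weeks of age and, per the study's methods, used at 8 to 12 weeks. They breathed 21% oxygen (normoxia, 7 samples) or 80% oxygen (hyperoxia, 6 samples) for 5 days, and the lungs were perfused with cold buffer and frozen. Total RNA of whole lung was read from the 3′ end of polyadenylated transcripts (Quant-seq), with 1 library per sample. The comparison asks which of these transcripts differed between lungs in high oxygen and lungs in room air, and which varied mainly from library to library. The labels do not state outright that each sample was a separate mouse, so the p-values measure the spread between these samples.

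Early response genes are switched on within minutes of a stimulus such as a growth factor, stretch or oxidant stress, from signals that need no new protein. The FOS and JUN families dimerize to form AP-1, which binds short palindromic sites in enhancers and promoters, and ATF3 pairs with JUN proteins at related sites. EGR1 is a zinc finger activator that binds GC-rich sites, and MYC pairs with MAX to drive genes of growth and ribosome production. Because the same genes also respond within minutes to tissue dissection and cooling, their level in a frozen organ can also depend on the time between death and freezing, which the labels do not record for these libraries.

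Total counts ran from 1607111 to 3387736 in the normoxic libraries and from 2029006 to 4540288 in the hyperoxic ones. Levels are given as CPM, counts divided by the effective size of the library after scaling by trimmed mean of M values (TMM), and differences were tested with edgeR's quasi-likelihood test at an adjusted p of 0.05 (Benjamini-Hochberg, 12496 genes tested). Over all genes tested, 1473 (11.8%) were higher and 1346 (10.8%) lower in hyperoxia, against 1097 and 1729 in limma on the deposited log values, which are scaled by library size alone. One library stood apart: hyperoxia 1 had a mean correlation of 0.779 with the other libraries, which had 0.886 or more, and 0.944% of its counts were mitochondrial, against 1.94% to 3.24% elsewhere. Lung markers were present in every library, and no gene of the 11 marker lists was at 0 in all libraries, but marker levels moved with the groups. Of 6 alveolar type 2 genes 4 were lower in hyperoxia, and their summed level was 12107 to 22828 CPM in normoxia and 3119 to 6780 CPM in hyperoxia, while 5 of 5 tested B and T cell genes were lower, with sums of 129 to 179 CPM and 35.8 to 86.3 CPM. Of 5 airway genes 2 were lower, with sums of 16006 to 54576 CPM and 2329 to 11285 CPM. Of the tested genes of the other lists, 3 of 6 were lower for heart muscle, 2 of 6 for endothelium, 1 of 6 for alveolar type 1 cells and 1 of 4 for red blood cells. Of 6 macrophage and monocyte genes 1 was higher and 2 were lower, of 6 fibroblast and smooth muscle genes 3 were higher, and 0 of 4 neutrophil genes and 0 of 1 liver gene passed in either direction. In bulk RNA, fewer cells of a type and less RNA per cell cannot be told apart, and the part of cell makeup in the differences described here was not tested.

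Promoter windows of 7 of the 10 genes were read from RefSeq (GRCm38.p6, 250 bases before to 50 bases after the start) and searched on both strands for TGANTCA, the AP-1 site, TGACNTCA, the longer AP-1 or cyclic AMP response site, TGACGT, its shorter form, which is also part of the longer site where N is G, GCGNGGGCG, the EGR site, CACGTG, the E box of MYC, and the CArG box of serum response factor. Fosl1, Egr1 and Myc were not used here. The stretches are shown because these families are known to act on each other's promoters. The 5 windows with a match before the start gave the stretches printed here, read 5′ to 3′ on the strand of the gene, with the match in capitals.
Fos: ttccgcccagTGACGTaggaagtcca
Jun: agcctcggggTGACATCAtgggctattt
Atf3: taatagcattACGTCAgc
Fosb: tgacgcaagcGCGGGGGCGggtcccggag
Fosl2: ccggctgcgcGCGGGGGCGgaagggcgcg

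The Fos stretch lies at chr12:85473814-85473839 on the plus strand, with the match beginning 66 bases before the start. The Jun stretch lies at chr4:95052250-95052277 on the minus strand, with the match 45 bases before the start, and the Atf3 stretch at chr1:191183334-191183351 on the minus strand, where TGACGT stands on the opposite strand 8 bases before the start. The Fosb and Fosl2 stretches hold the EGR site, 50 and 79 bases before the start, at chr7:19310077-19310105 on the minus strand and chr5:32136383-32136411 on the plus strand. The start is that of RefSeq, and for Atf3, Fosl2 and, by a few bases, Fosb it lies inside the GENCODE gene span given with their levels, so those windows do not stand before the outermost annotated start. For Junb and Jund it lies before that span. Of all 32851 promoter windows, 7.51% held TGACGT, 8.83% TGACNTCA, 5.55% the EGR site, 7.81% TGANTCA, 7.15% the E box and 1.63% the CArG box. These shares count matches anywhere in the window, including the 50 bases after the start, whereas the printed matches end before the start. No searched motif stood before the start in the windows of Junb and Jund. A match is a description of the letters and says nothing of binding in these lungs.

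Of the 10 genes, which were chosen with earlier results of these data known, 8 passed the filter on low counts and were tested. Fosb and Fosl1 did not pass it. Of the 8, 5 were higher in hyperoxia (Fos, Fosl2, Atf3, Egr1 and Myc), 0 were lower and 3 did not pass the test (Jun, Junb and Jund), beside the 11.8% of all genes tested that were higher. Without hyperoxia 1, Junb also passed, and 6 of these 8 genes were higher, beside 15.2% of all genes. The 6 include Myc, which the filter then kept through hyperoxia 2 to 6, where it is high, so its call in that fit is not read. The filter then kept Fosl1 too, but only through its hyperoxic libraries, so its call there is not counted. Myc passed the filter through hyperoxia 2 to 6 and normoxia 2, and without normoxia 2 the filter removed it. Of the 8 tested genes, the groups did not overlap for 1, Atf3, beside 5.6% of all genes tested that were higher with no overlap and 5.23% that were lower. Of the genes tested, 5.47% both passed as higher and had no overlap, as Atf3 did. Fosl1, which was not tested and so has no such share beside it, had no overlap either. The plot of levels by library shows how the genes differed in this respect.

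**Figure D1:**
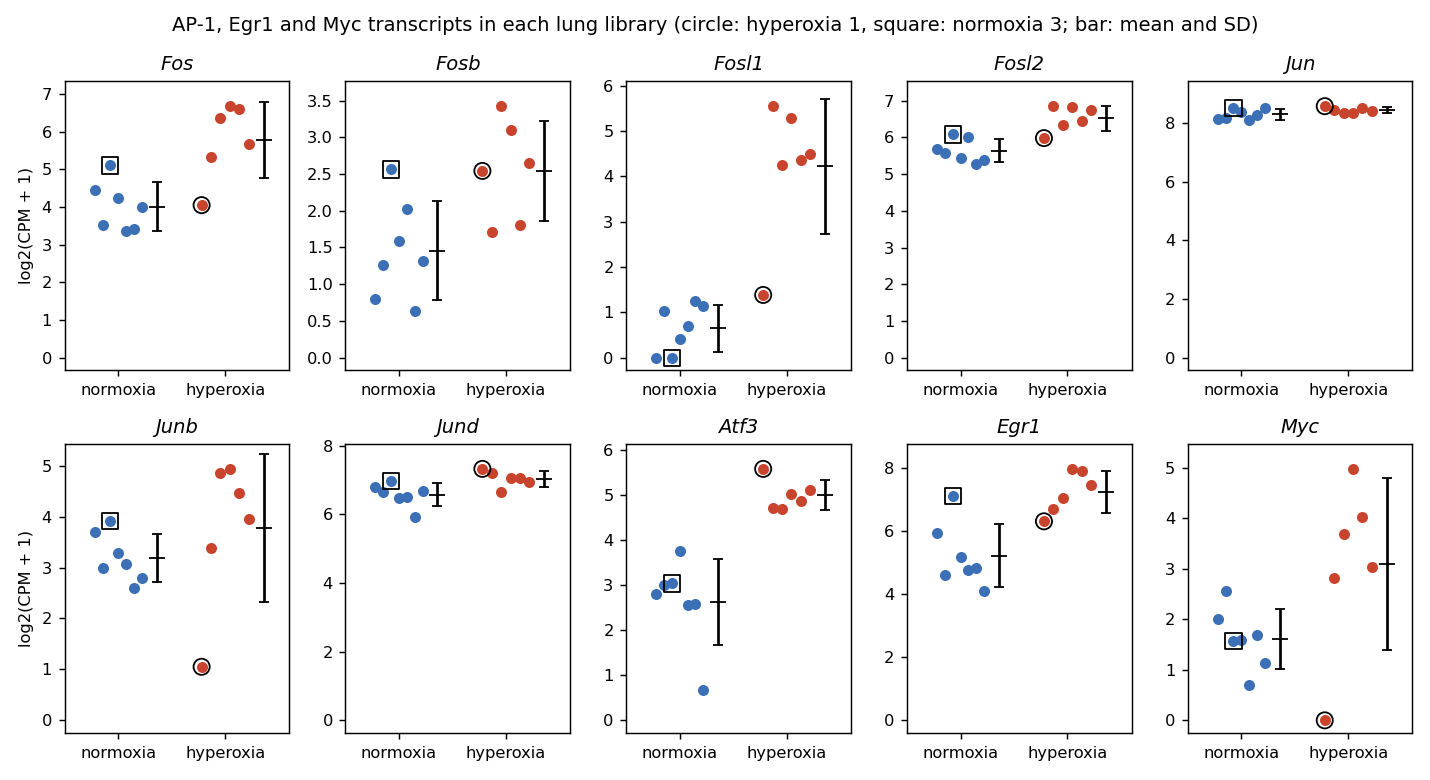
Level of each of the 10 genes in each library, as log2(CPM + 1) on the y axis, for 7 normoxic (blue) and 6 hyperoxic (red) libraries; the bar gives the mean and SD of each group, the circle marks hyperoxia 1 and the square normoxia 3. Atf3 and Fosl1 are the genes whose groups do not overlap, while hyperoxia 1 lies below every other library for Junb and Myc.

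Fos, the inducible partner of JUN that gives AP-1 its name, was higher in hyperoxia. Its level was 20.9, 10.5, 33.4, 17.8, 9.19, 9.76 and 14.9 CPM in normoxia 1 to 7 and 15.5, 39.3, 80.6, 101, 95.7 and 50.3 CPM in hyperoxia 1 to 6. Thus 5 of 6 hyperoxic libraries lay above every normoxic one, and hyperoxia 1 lay inside the normoxic range. The means were 16.6 ± 8.59 CPM (SD, n = 7) and 63.8 ± 34.1 CPM (SD, n = 6), and the log2 fold change was 1.93 (SE 0.39), with an adjusted p of 0.00208 in edgeR. Without hyperoxia 1 it was 2.15. Fos lies at chr12:85473890-85477273 on the plus strand (GRCm38), and no other annotated gene overlaps it.

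Fosl1, which encodes FRA-1, a FOS family protein without the strong activation domain of FOS, showed the largest difference in mean log2 CPM of the set but rested on few counts in normoxia. It had 0, 3, 0, 1, 1, 5 and 4 counts in normoxia 1 to 7 and 3, 121, 52, 142, 62 and 98 counts in hyperoxia 1 to 6. The sums were 14 and 478 counts. On the CPM scale the highest normoxic library was at 1.39 and the lowest hyperoxic one, hyperoxia 1, at 1.61. The groups therefore did not overlap, but the 3 counts of hyperoxia 1 and the 5 counts of normoxia 6 cannot be told apart by counting, and only the other 5 hyperoxic libraries, at 18.1 to 45.7 CPM, stood clear. Mean log2 CPM was higher by 3.90 in hyperoxia (two-sided exact permutation test, p = 0.000583, the smallest that 1716 splits can give here). That test was added after seeing the data. Its p reaches this minimum only because hyperoxia 1 stands above normoxia 6, an order that counting cannot settle. With no filter the edgeR log2 fold change was 5.09 (adjusted p = 1.4e-05), where 7.34% of all genes were higher. Since Fosl1 did not pass the filter on low counts, neither p is read as a call. Fosl1 lies at chr19:5447547-5455946 on the plus strand, overlapping Ccdc85b on the opposite strand, which had at most 1 count in any library.

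Fosl2, the FRA-2 gene, differed with less spread than the rest of the FOS family. It ranged from 37.9 to 66.7 CPM in normoxia (median 46.8) and from 62.2 to 114 CPM in hyperoxia (median 96.1). Of the hyperoxic libraries, 5 of 6 were above every normoxic one, and hyperoxia 1, at 62.2 CPM, was again the one inside the normoxic range. The normoxic mean was 49.9 ± 11.3 CPM (SD, n = 7), and the hyperoxic mean was 93.4 ± 20.8 CPM (SD, n = 6). In edgeR this gave 0.91 on the log2 scale (SE 0.18, adjusted p = 0.00190). Fosl2 lies at chr5:32135801-32157842 on the plus strand.

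Fosb, at chr7:19302696-19310051 on the minus strand, was too low to be tested, with 39 counts over all normoxic and 103 over all hyperoxic libraries. Its level was 0.747, 1.40, 4.91, 2.02, 3.06, 0.557 and 1.49 CPM in normoxia 1 to 7, and 4.83, 2.27, 9.73, 7.54, 2.50 and 5.25 CPM in hyperoxia 1 to 6. The groups overlapped, with 3 of 6 hyperoxic libraries above normoxia 3, the highest normoxic one. The difference in mean log2 CPM was 1.19 (two-sided exact permutation p = 0.0186, a test added after seeing the data). With no filter edgeR gave a log2 fold change of 1.47 with an adjusted p of 0.0504.

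The JUN genes did not pass the test in the full set of libraries. Jun, the main partner of FOS, was at 273 to 365 CPM in normoxia (median 309) and 321 to 381 CPM in hyperoxia (median 343), and only hyperoxia 1 lay above all normoxic libraries. The log2 fold change was 0.13 (SE 0.12, adjusted p = 0.468 in edgeR), and the pooled SD of its log2 CPM within groups was 0.15, at percentile 0.848 of all genes tested, so Jun was among the steadiest transcripts. Jun lies at chr4:95049034-95052222 on the minus strand, opposite the antisense gene Junos.

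Jund, the JUN family gene that is expressed in resting cells, was at 59.6 to 125 CPM in normoxia (median 98.9) and 100 to 159 CPM in hyperoxia (median 131). The groups overlapped, with 4 of 6 hyperoxic libraries above every normoxic one. The log2 fold change was 0.46 (SE 0.16), with an adjusted p of 0.0543 in edgeR, and it passed in DESeq2 (0.49, adjusted p = 0.0325), in limma-voom (0.47, adjusted p = 0.0487) and without normoxia 3 (0.56, adjusted p = 0.0296) or hyperoxia 3 (0.56, adjusted p = 0.0248). Jund lies at chr8:70698949-70700616 on the plus strand, with Gm11175 on the opposite strand.

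Junb, an early response member that can restrain JUN, turned on 1 library. Normoxic libraries ran from 5.02 to 14.1 CPM (median 7.35), and the hyperoxic ones were at 1.07, 9.45, 28.1, 29.6, 20.9 and 14.4 CPM in hyperoxia 1 to 6. Hyperoxia 1, with 2 counts, was below all 12 other libraries, whereas 4 of 6 hyperoxic libraries were above all normoxic ones. With all libraries the log2 fold change was 1.03 (SE 0.45, adjusted p = 0.115 in edgeR), and without hyperoxia 1 it was 1.28 (adjusted p = 0.00527). Junb lies at chr8:84974484-84978718 on the minus strand and overlaps Prdx2 on the opposite strand. Prdx2 was at 120 to 268 CPM and highest in hyperoxia 1. The strand setting of the counting is not given in the sources used here, so reads of overlapping genes on opposite strands may not have been kept apart.

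Atf3, a stress-induced partner of JUN that often acts as a repressor, was higher in every hyperoxic library. It was at 5.97, 6.99, 7.20, 12.4, 4.90, 5.02 and 0.595 CPM in normoxia 1 to 7 and at 46.6, 24.9, 24.7, 31.2, 28.1 and 33.5 CPM in hyperoxia 1 to 6. The groups did not overlap, and hyperoxia 1, which was low for Fos, Fosl1, Junb and Myc, was the highest of all. The means were 6.16 ± 3.54 CPM (SD, n = 7) and 31.5 ± 8.18 CPM (SD, n = 6). The log2 fold change was 2.34 (SE 0.37), with an adjusted p of 3.3e-04 in edgeR, and it was 2.22 without hyperoxia 1. Atf3 lies at chr1:191170296-191218039 on the minus strand, with the short gene Gm24748 on the opposite strand.

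Egr1, which is induced through serum response factor alongside Fos, was higher in hyperoxia with wide spread in both groups. It was at 61.2, 23.4, 138, 35.3, 26.3, 27.9 and 16.4 CPM in normoxia 1 to 7 and at 78.8, 104, 132, 252, 240 and 175 CPM in hyperoxia 1 to 6. Normoxia 3 lay above 3 of the 6 hyperoxic libraries, and the other 6 normoxic libraries lay below all of them. The normoxic libraries averaged 46.9 ± 42.5 CPM (SD, n = 7), and the hyperoxic ones averaged 164 ± 71.6 CPM (SD, n = 6). In edgeR the log2 fold change was 1.80 (SE 0.44, adjusted p = 0.00806), and it was 2.38 without normoxia 3.

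Myc was higher in hyperoxia in the edgeR test, with few counts and the widest spread of the 8 tested genes. It had 8, 14, 6, 6, 1, 8 and 4 counts in normoxia 1 to 7 and 0, 16, 34, 113, 49 and 33 counts in hyperoxia 1 to 6, which gave 0.613 to 4.89 CPM (median 2.02) and 0 to 30.4 CPM (median 9.51). Thus 5 of 6 hyperoxic libraries were above all normoxic ones, and in hyperoxia 1 Myc was not detected, which allows up to 3 counts, or 1.61 CPM. The log2 fold change was 2.36 (SE 0.61, adjusted p = 0.0110 in edgeR) and 2.61 (adjusted p = 3.2e-04) without hyperoxia 1. In the fit without hyperoxia 1 the filter kept Myc through hyperoxia 2 to 6, where it is high, so that smaller p is not read. The two-sided exact permutation test of mean log2 CPM over all 13 libraries gave p = 0.0717. The call was lost in limma-voom (1.87, adjusted p = 0.167) and in limma on the deposited values (1.44, adjusted p = 0.0996). Myc lies at chr15:61985391-61990374 on the plus strand.

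**Figure D2:**
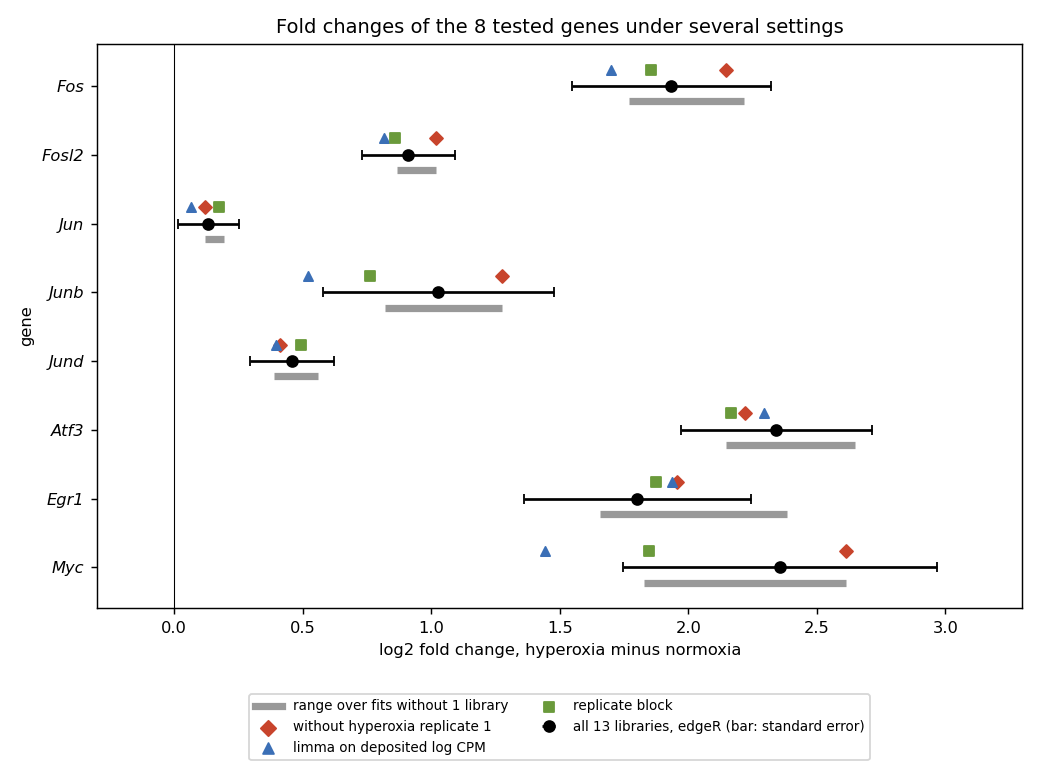
The log2 fold change (x axis, hyperoxia minus normoxia) of the 8 tested genes (y axis) in edgeR with all 13 libraries (black, bar: standard error), with the range over fits without 1 library (grey) and 3 other fits. All of these values lie above 0, and those of Atf3 stay between 2.15 and 2.65 over the fits without 1 library while those of Myc run from 1.83 to 2.61. The range of Myc leaves out the fit without normoxia 2, where the filter removed it.

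Library-to-library spread was then set beside the group difference. The median pooled SD of log2 CPM within groups was 0.43 over all genes tested, 0.82 over the 8 tested genes of the set and 0.59 over the 44 tested genes of a list of other early response genes. Myc (1.38, percentile 97.9), Junb (1.10, percentile 94.4), Egr1 (0.87, percentile 87.9), Fos (0.83, percentile 86.2) and Atf3 (0.81, percentile 85.1) were among the more variable genes. Fosl2 (0.33, percentile 28.6), Jund (0.29, percentile 20.7) and Jun were below the median. For Atf3 the spread came mostly from normoxia, where normoxia 7 had 2 counts. Its SD of log2 CPM was 1.05 in normoxia and 0.34 in hyperoxia, against 0.68 and 1.91 for Myc and 0.49 and 1.55 for Junb.

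**Figure D3:**
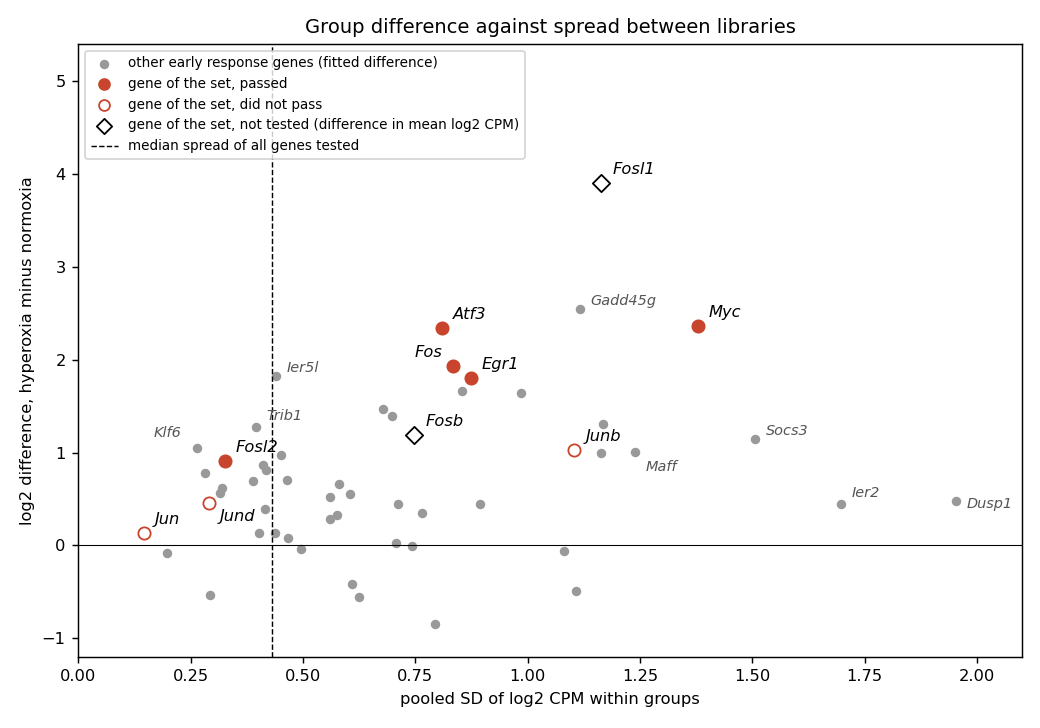
The log2 difference between groups (y axis) against the pooled SD of log2 CPM within groups (x axis) for the 10 genes and the 44 other early response genes tested (grey). Atf3, Fos and Egr1 lie at like spread near 0.8 to 0.9, Junb has more spread and less difference, and Dusp1 and Ier2 have the most spread with differences of 0.48 and 0.45.

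The spread followed particular libraries. Normoxia 3 was the highest normoxic library for 6 of the 10 genes and for 22 of the 44 other early response genes, against 14.4% of all genes tested. Hyperoxia 1 was the lowest hyperoxic library for 6 of the 10 genes and for 27 of the 44 (61.4%), against 39.8% of all genes, and it was the highest for Jun, Jund and Atf3, against 28.9% of all genes. It lay below all 12 other libraries for 2 of the 10 genes (Junb and Myc) and for 21 of the 44 (47.7%), against 31.8% of all genes. Hyperoxia 4 was the highest hyperoxic library for 4 of the 10 genes and for 11 of the 44, against 10.8% of all genes. What happened between death and freezing in these libraries is not recorded, and its part in these values was not tested.

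Other early response genes that also respond to tissue handling are given as examples, chosen after their values were seen. With all libraries none of these examples passed, but 16 of the 44 tested genes of their list were higher, 1 was lower and 27 did not pass. Among the higher ones were Cyr61 (log2 fold change 1.47, adjusted p = 0.00485 in edgeR) and Egr2 (1.64, adjusted p = 0.0195). Ier2, a rapid response gene, was at 11.99 to 42.5 CPM in normoxia and 0 to 59.0 CPM in hyperoxia, with 0 counts in hyperoxia 1 (log2 fold change 0.45, SE 0.51, adjusted p = 0.572 in edgeR). Dusp1, a phosphatase that shuts off stress kinases, was at 34.2 to 173 CPM and 0.536 to 178 CPM, with 1 count in hyperoxia 1 (0.48, SE 0.58, adjusted p = 0.598). Neither gene parted the groups, and without hyperoxia 1 the log2 fold changes were 0.71 (adjusted p = 0.0602) and 0.75 (adjusted p = 0.108). Zfp36, which destabilizes early response messages, gave 0.03 (SE 0.31, adjusted p = 0.962), but its sign turned in 5 other fits and in 6 of the 13 fits without 1 library. Nr4a1 gave −0.49 (SE 0.55, adjusted p = 0.565) and Socs3, with 0 counts in hyperoxia 1, gave 1.15 (SE 0.51, adjusted p = 0.120), and 1.41 (adjusted p = 0.00179) without that library.

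**Figure D4:**
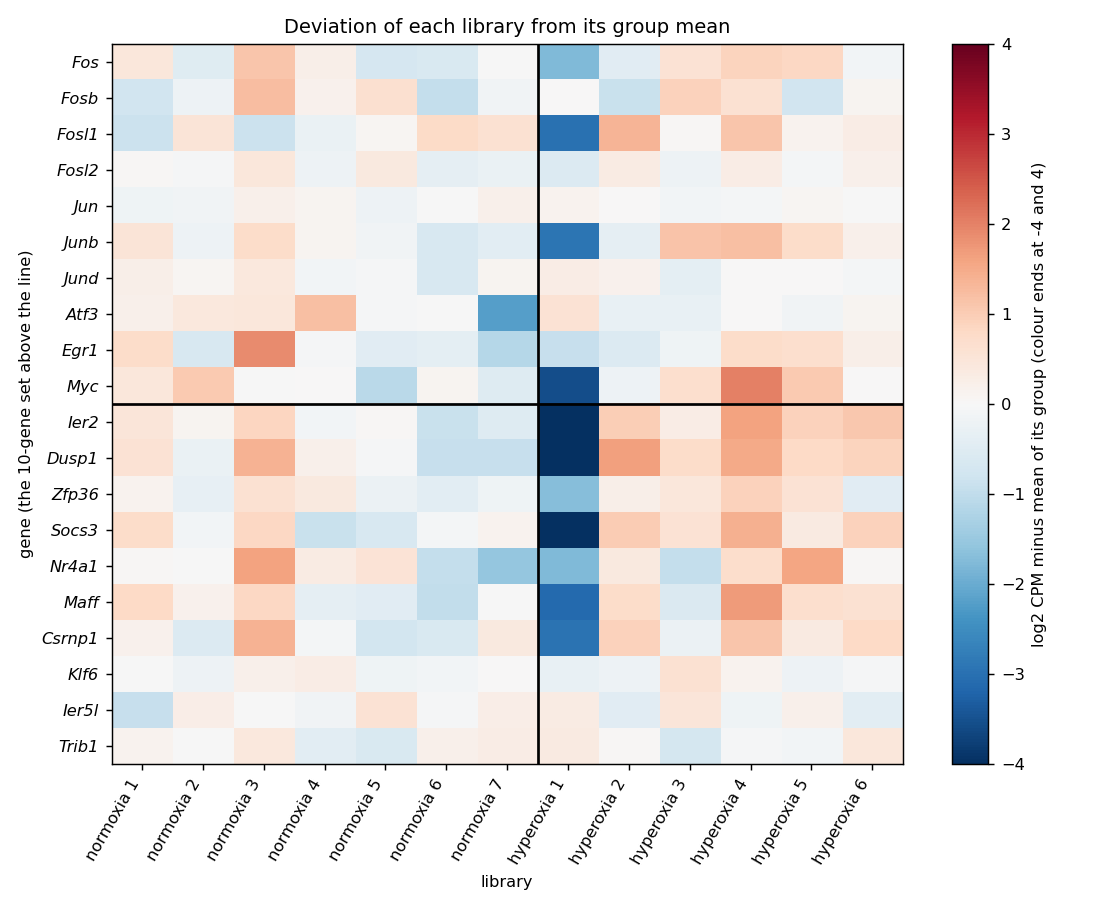
Deviation of log2 CPM from the mean of its group (colour, ending at −4 and 4) for the 10 genes, above the line, and 10 other early response genes, in each of the 13 libraries (columns). Hyperoxia 1 is low for Fos, Fosl1, Junb, Myc, Ier2, Dusp1 and Socs3 but not for Jun, Jund, Atf3, Ier5l or Trib1, and normoxia 3 is high for Fos, Fosb, Egr1 and Dusp1.

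Deviations from the group means showed which genes moved together from library to library, as a description over 13 libraries that share their depth and scaling. Of 10111 genes compared, those most like Fos were Junb (Pearson r = 0.91, and 0.87 without hyperoxia 1), Zfp36 (0.91 and 0.83) and Gpm6a (0.89 and 0.80). Egr1 followed Fos at 0.78 with and 0.80 without that library, whereas Atf3 gave −0.057 and 0.16. Those most like Myc were Atrnl1 (0.96 and 0.86), Plpp6 (0.95 and 0.82) and Kat2b (0.95 and 0.80). Junb followed Myc at 0.88 with and 0.52 without hyperoxia 1, so much of that likeness rested on 1 library. Of these genes, Gpm6a (log2 fold change −0.62, adjusted p = 0.0460 in edgeR) and Kat2b (−0.63, adjusted p = 0.0294) were lower in hyperoxia, calls that were kept in 4 and 8 of the 13 fits without 1 library, and Atrnl1 (−0.50, adjusted p = 0.158) and Plpp6 (0.30, adjusted p = 0.525) did not pass.

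The libraries carry letter names that fall into 2 runs, B to M (normoxia 1 to 5 and hyperoxia 1 to 3) and O to S (normoxia 6 and 7 and hyperoxia 4 to 6), and the labels do not say what the letters mean. The difference in mean log2 CPM was larger in the O to S libraries for 9 of the 10 genes, and for 8 of the 10 without hyperoxia 1, though the difference between runs was not tested. It was 1.13 and 2.64 for Fos, 2.00 and 3.56 for Atf3, 1.17 and 3.32 for Egr1, 0.63 and 1.35 for Fosl2, and 0.43 and 2.77 for Myc in B to M and O to S. For Junb it was −0.35 in B to M and 1.81 in O to S, and without hyperoxia 1 the B to M value was 0.75. Without that library the B to M value was also 1.73 for Fos and 1.69 for Myc. For Fosl1 it moved from 3.66 to 4.89, above the 3.72 of O to S. Jun was larger in B to M, at 0.19 and 0.03. With the run as a term in edgeR, Fos (1.84), Fosl2 (0.94), Atf3 (2.53), Egr1 (1.78) and Myc (2.06) kept an adjusted p under the threshold. Jund (0.51) also passed in that fit.

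The list of other early response genes held 48 genes, 44 of them tested. This list and those that follow were chosen with earlier results of these data known, so their shares are a description and not a test. Of these, 16 were higher, 1 was lower and 27 did not pass, beside 11.8% higher and 10.8% lower over all genes tested. The median log2 fold change was 0.54, against −0.03 over all genes. Without hyperoxia 1, 23 of 45 were higher, beside 15.2% of all genes. The 3 with the smallest adjusted p had groups that did not overlap. Ier5l, a relative of the Ier2 family, gave a log2 fold change of 1.83 (SE 0.24, adjusted p = 6.6e-05 in edgeR). Klf6, a zinc finger factor of tissue injury, gave 1.05 (SE 0.16, adjusted p = 2.7e-04), and Trib1, a pseudokinase that acts in protein degradation, gave 1.27 (SE 0.20, adjusted p = 3.6e-04). Btg1, an antiproliferative gene, was the 1 lower gene (−0.53, SE 0.17, adjusted p = 0.0318), and that call was lost without any 1 of normoxia 1 to 5, normoxia 7 and hyperoxia 2, 4 and 6 (adjusted p = 0.0537 to 0.0854).

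Among 31 tested partners and upstream regulators of AP-1, 5 were higher (16.1%) and 2 lower (6.45%), near the 11.8% and 10.8% of all genes tested, and the median of their log2 fold changes was 0.02. Without hyperoxia 1, 9 were higher, beside 15.2% of all genes, and 1 was lower. Atf4, the main effector of the integrated stress response, rose from 57.6 to 85.3 CPM in normoxia to 214 to 317 CPM in hyperoxia (1.91, SE 0.15, adjusted p = 4.3e-07 in edgeR). Cops5, a COP9 signalosome subunit first known as a JUN coactivator, gave 0.98 (SE 0.17, adjusted p = 8.3e-04), and Mafg, a small MAF partner, 0.63 (SE 0.15, adjusted p = 0.00617). Creb1, the cyclic AMP response factor, was lower at −0.46 (SE 0.11, adjusted p = 0.00648), and Maf at −0.37 (SE 0.13, adjusted p = 0.0453), the latter past the threshold in only 2 of the 13 fits without 1 library, those without hyperoxia 3 or 5.

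In the network around MYC, 2 of 20 tested genes were higher and 3 lower, near the 11.8% and 10.8% of all genes tested, and the median of their log2 fold changes was −0.21. Of the 3 lower genes, Mycl passed the filter on low counts only through normoxic libraries, so its call is not read. The other two, Mxi1 and Mxd1, had groups that did not overlap, beside 5.23% of all genes that were lower with no overlap. These genes, whose proteins compete with MYC for MAX, gave −0.83 (SE 0.14, adjusted p = 7.2e-04 in edgeR) and −0.85 (SE 0.23, adjusted p = 0.0137). Mycl, a MYC paralog, was at 3.27 to 10.8 CPM in normoxia and at 0 to 2.50 CPM in hyperoxia. Huwe1, a ubiquitin ligase of MYC, gave 0.60 (SE 0.19, adjusted p = 0.0274), and Zbtb17, the MIZ1 gene, 0.89 (SE 0.29, adjusted p = 0.0383). Huwe1 did not pass without any 1 of normoxia 1, 2, 3 and 5 and hyperoxia 5, and Zbtb17 did not pass without any 1 of normoxia 1, 3, 5, 6 and 7 and hyperoxia 1 and 3, falling to 0.60 without hyperoxia 1.

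Genes commonly listed as MYC targets were higher in 15 of 30 tested cases and lower in 0, beside 11.8% higher and 10.8% lower over all genes tested, and the median of their log2 fold changes was 0.80. Of the 30, 11 were higher with no overlap between groups, beside 5.6% of all genes. Odc1, the rate-limiting enzyme of polyamine synthesis, was at 107 to 156 CPM in normoxia and 421 to 781 CPM in hyperoxia (2.21, SE 0.16, adjusted p = 3.0e-07 in edgeR). Hspd1, a mitochondrial chaperonin, gave 1.14 (SE 0.15, adjusted p = 9.1e-05), and Nme1, a nucleoside diphosphate kinase, 1.12 (SE 0.15, adjusted p = 9.1e-05).

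Genes commonly listed as AP-1 or EGR1 targets were higher in 18 of 29 tested cases and lower in 2, beside 11.8% and 10.8% of all genes tested, and the median of their log2 fold changes was 1.25. The 18 include Timp1, which met the filter on low counts through its hyperoxic libraries, so its call is not read. Hbegf, a growth factor of the EGF family, was at 79.0 to 111 CPM in normoxia and 218 to 405 CPM in hyperoxia (1.67, SE 0.15, adjusted p = 1.7e-06 in edgeR). Areg, another EGF receptor ligand, gave 3.06 (SE 0.32, adjusted p = 1.0e-05), from 4.19 to 14.5 CPM to 32.7 to 126 CPM. Ccnd1, a cyclin of the G1 phase, gave 1.80 (SE 0.19, adjusted p = 1.1e-05). Pdgfa (−0.43, SE 0.14, adjusted p = 0.0329) and Mmp12, a macrophage elastase (−0.69, SE 0.24, adjusted p = 0.0498), were the 2 lower genes. Mmp12 passed in only 1 of the 13 fits without 1 library, that without hyperoxia 3, and Pdgfa in 4, those without normoxia 1 or hyperoxia 1, 3 or 5. Such target lists are general knowledge of many tissues, and whether these factors act on the genes in these lungs was not measured.

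**Figure D5:**
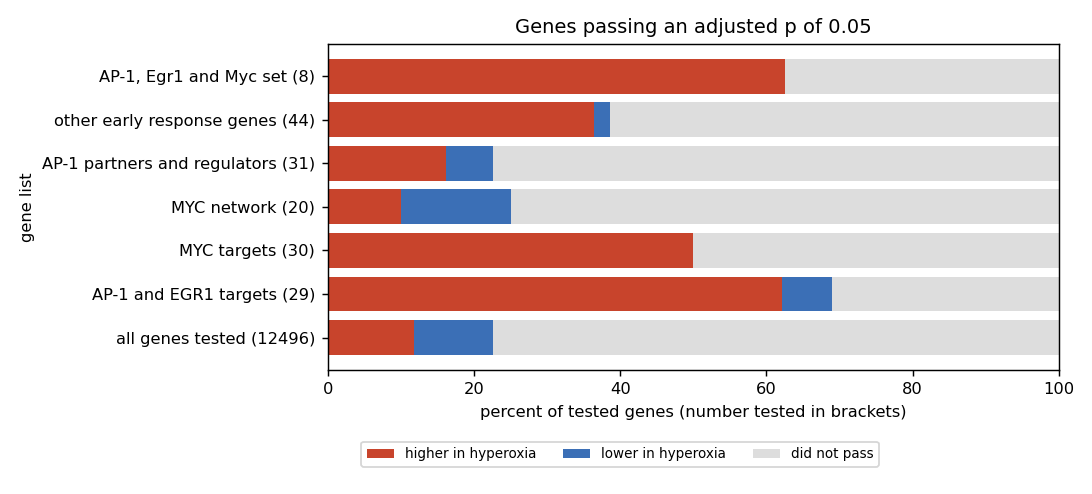
Percent of the tested genes of each list (x axis, number tested in brackets on the y axis) that were higher (red) or lower (blue) in hyperoxia at an adjusted p of 0.05. The set of 8 tested genes and the AP-1 and EGR1 targets have 62.5% and 62.1% higher, against 11.8% of all genes tested. The genes and lists were chosen with earlier results of these data known, so these shares are a description and not a test.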

How the data were processed

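Quant-seq libraries of 7 normoxic and 6 hyperoxic mouse lungs were analysed, grouped by their labels. The authors pseudoaligned reads with kallisto 0.46.1 in BioJupies and deposited whole-number counts per gene symbol (the submitters' notes name mm10, and the annotation is not given in the sources used here). They also deposited log10 values, which are log10(CPM + 1) by library size, since recomputation gave them to within 4.44e-16. All columns were mapped (0 left out), and no same-group pair of 36 agreed within counting noise (chi-square per gene at least 3.90).

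Counts were tested with edgeR 4.0.16 in R 4.3.3 (TMM, filterByExpr, glmQLFit and glmQLFTest, Benjamini-Hochberg adjusted p of 0.05), and scripts were tested on simulated data. Log2 CPM used a prior count of 2, and SE came from the fold change and F. The groups were called not overlapping for a gene where every value of one exceeded every value of the other. Floors are 3 counts and cover counting error only. Alternatives were DESeq2 1.42.0, limma 3.58.1 with voom or on the log10 values put on a log2 scale, scaling by total count, a filter of at least 10 counts per library or none, a replicate block, the letter run as a term, and each library left out. The exact permutation tests of Fosb and Fosl1 and the B to M values without hyperoxia 1 were added after seeing the data.

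The genes and lists were chosen with earlier results of these data known. Named genes are the 10 of the set, the 3 higher and 3 lower genes of each list with the smallest adjusted p, and the 3 most like Fos and Myc. Ier2, Dusp1, Nr4a1 and Socs3 were named after their values were seen. Gene coordinates are GENCODE vM21 (GRCm38).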

Additional observations from a re-analysis of the deposited data

Results flagged for a closer look

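In groups of this size, a sample was noted when its gap to the nearest other sample was more than 0.568 (7 samples) or 0.625 (6 samples) of the group's range, which chance gives in about 1 of 20 groups. Of 82 groups of values examined, 7 were noted and chance gives about 4, and 4 of the 7 concern hyperoxia 1.

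Hyperoxia 1 had the lowest mean correlation with the other libraries (0.779, gap 0.763 of the range) and the lowest median level of the other early response genes (log2 CPM 3.79, gap 0.646). It was also the highest hyperoxic library for Zbtb17 (56.8 CPM, gap 0.637) and Nme1 (235 CPM, gap 0.675). Normoxia 3 was the highest normoxic library for Egr1 (138 CPM, gap 0.630). Hyperoxia 3 was the highest hyperoxic library for Mmp12 (58.7 CPM, gap 0.660). Normoxia 5 had the lowest total count of its group (1607111, gap 0.612).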

How the results depend on the processing

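Fos, Fosl2, Atf3 and Egr1 stayed higher and past the threshold in each alternative that tested them. Jund passed in DESeq2 (0.49), limma-voom (0.47) and with the letter run as a term (0.51), and ran from 0.39 to 0.56 without 1 library, and Junb ran from 0.82 to 1.28. Myc did not pass in limma-voom (1.87) or limma on the deposited values (1.44), and the cause was not tested. With at least 10 counts in every library, 3 genes of the set were called higher, since Atf3, Junb and Myc are then not tested. Scaling by library size alone moved the median of all genes from −0.03 to −0.10, and limma on the deposited values gave −0.16. Jun within the O to S libraries turned to −0.032 by library size alone.

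Zfp36 turned to −0.089 in limma-voom, −0.21 on the deposited values, −0.036 by library size alone and −0.027 with at least 10 counts, and ran from −0.16 to 0.24 without 1 library (−0.0096, −0.0289 and −0.0023 without normoxia 2, 6 and 7, −0.0044, −0.16 and −0.048 without hyperoxia 3, 4 and 5).

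Of the list counts, other early response genes lower were 2 on the deposited values, 0 with no filter and 0 to 2 without 1 library. AP-1 partners lower were 1 with no filter and 1 to 2 without 1 library, and those higher 4 to 9. MYC network genes higher were 1 in limma-voom, 0 on the deposited values, 1 by library size alone and 0 to 2 without 1 library. AP-1 and EGR1 targets lower were 0 with no filter, 1 with the letter run and 0 to 2 without 1 library.

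The replicate numbers did not pair the libraries, since the correlation of same-numbered deviations ran from −0.33 to 0.27. With the replicate number as a block, 718 genes were higher and 626 lower, Myc gave 1.85 (adjusted p = 0.186), Zfp36 −0.13, and the list counts were 10 early response genes higher and 0 lower, 3 AP-1 partners higher and 0 lower, 0 MYC network genes higher, and 11 targets higher and 1 lower.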

Other observations

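Gadd45g, a growth arrest gene in the list of other early response genes, was at 3.60 to 9.48 CPM in normoxia and 3.22 to 76.8 CPM in hyperoxia (log2 fold change 2.55, adjusted p = 8.2e-04 in edgeR). Hyperoxia 1 was its lowest library, and without it the log2 fold change was 2.79. Among targets, Timp1, an inhibitor of matrix proteases, was at 1.11 to 9.19 CPM in normoxia and 3.75 to 78.9 CPM in hyperoxia (3.73, adjusted p = 3.4e-04). It met the filter on low counts through its hyperoxic libraries, so that call is not read. Mt2, a metallothionein, was at 12.8 to 81.8 CPM and 23.6 to 1510 CPM (4.18, adjusted p = 2.8e-04). For both the groups overlapped, with pooled SDs of log2 CPM of 1.25 and 1.66. These genes were named after their values were seen.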
